A study of Mus musculus with 10 samples.

Results

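Inflammasome and gasdermin genes were followed in mouse colon. The members were named as a list of 10 gene symbols, *Nlrp3*, *Nlrp6*, *Aim2*, *Naip5*, *Pycard*, *Casp1*, *Casp4*, *Gsdmd*, *Gsdmc2* and *Gsdmc4*, and each was found once among the 56691 genes of the table. Colon RNA came from 10 male C57/BL6 mice, obtained at an age of 8 weeks. All were given 3% dextran sulfate sodium (DSS) in drinking water for 7 days, an agent that injures the colon epithelium. Then 5 of them received chick early amniotic fluid (ceAF) by gavage at 15 mL/kg for 10 days (ceAF-1 to ceAF-5), and 5 are described as given DSS only (DSS-1 to DSS-5). The methods of the study state neither a sampling day nor a gavage for the DSS mice, and its text compares both groups after gavage began. Since mice without DSS were not analysed here, the values compare ceAF with DSS alone and give no level of uninjured colon. Total counts per library ran from 16275884 to 19901549 in the DSS group and from 14676471 to 18811795 in the ceAF group.

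An inflammasome is a protein complex that forms in the cytosol when a sensor meets a microbial product or a sign of damage. The sensor, often through the adaptor ASC encoded by *Pycard*, activates caspase-1, which matures the cytokines encoded by *Il1b* and *Il18* and cleaves gasdermin D, whose freed part opens pores in the plasma membrane. In the gut these genes are active in epithelial cells, where *Nlrp6*, *Naip* and gasdermin C genes have been studied, as well as in immune cells.

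Most members did not separate the groups. Levels are given as CPM, counts scaled to a common library total, after TMM normalization, and the groups were compared with edgeR over the 16545 genes that passed its filter on low counts, all 10 members included. At an adjusted p under 0.05 none of the members and 0% of all genes tested were called, the smallest adjusted p of any gene being 0.656. DESeq2, fitted over 32504 genes instead of these 16545, called 26 genes, none of them a member. At an unadjusted p under 0.05, 2 of the 10 members were counted, *Nlrp3* with a lower and *Aim2* with a higher level in ceAF. Over all genes 1146 were counted, a share of 6.93%, of which 3.26% were higher and 3.67% lower. *Aim2* was the 1 member with all 5 ceAF libraries above all 5 DSS libraries, a pattern seen in 0.774% of all genes tested. No member had the opposite pattern, which 0.465% of all genes showed. The fitted log2 fold changes were above 0 for 6 members and below 0 for 4, with a median of 0.03 against 0.01 over all genes tested.

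Marker RNA differed between libraries, and DSS-1 stood apart. Neutrophil markers (7 genes) summed to 1789.4, 125.5, 300.1, 203.1 and 551.2 CPM in DSS-1 to DSS-5 and to 21.5, 250.4, 186.6, 136.0 and 213.7 CPM in ceAF-1 to ceAF-5. Summed over all libraries *Ly6g* was the most abundant of them with 48.9% of the sum, and it was highest in DSS-5, at 482.0 CPM. In DSS-1, at 228.7 CPM, it lay below *S100a9* (696.7 CPM), *S100a8* (401.1 CPM) and *Retnlg* (263.2 CPM). Outside DSS-1 *S100a9* was at most at 84.6 CPM. In ceAF-1 *Ly6g* made 19.4 CPM of the sum of 21.5 CPM. None of the 7 was at 0 in every library. At an unadjusted edgeR p under 0.05, 5 of the 7 were lower in ceAF with all libraries and 1 of 7 without DSS-1. With no library left out, voom, which here also weighted each library by its quality, counted none. At the other end, ceAF-1 held the lowest sums of neutrophil, macrophage, B-cell, fibroblast and endothelial markers. It was 1 of 2 libraries, with ceAF-5, in which mitochondrial genes took over 9% of the counts (9.66% and 9.74%).

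Among the sensors, *Nlrp3*, which responds to many signs of cell damage, was the member with the lowest level and the widest spread. Its level was 44.2, 2.05, 4.73, 1.02 and 0.96 CPM in DSS-1 to DSS-5 and 0.31, 1.43, 1.54, 0.89 and 0.49 CPM in ceAF-1 to ceAF-5. These levels rested on 763, 41, 79, 16 and 16 counts in the DSS libraries and on 4, 22, 28, 15 and 9 counts in the ceAF libraries. DSS-1 lay far above the other libraries, and the other 4 DSS libraries, between 0.96 and 4.73 CPM, overlapped the ceAF range of 0.31 to 1.54 CPM.

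The fitted log2 fold change of *Nlrp3* was −3.48 (SE 1.11), with an unadjusted edgeR p of 0.00957 and an adjusted p of 0.656. Without DSS-1 it was −1.21, and without DSS-1 and ceAF-1 it was −1.02, both no longer under the level of 0.05. With all libraries kept it was also lost with voom and its library weights, at −1.30, and with log2(FPKM + 1), at −0.90. The exact permutation test on mean log2 CPM gave a difference of −2.01 and p = 0.0794 with all 10 libraries, where the smallest p that 5 against 5 can give is 0.00794. Of the 7 neutrophil markers 5 moved with this result, and *Mmp9*, which was not counted, was also highest in DSS-1, at 41.7 CPM. *Ly6g*, at 228.7 CPM in DSS-1, was highest in DSS-5, where *Nlrp3* was lowest of its group. The macrophage marker sum was highest in DSS-1 too, at 475.4 CPM, of which *Cd14* made 287.8 CPM. The part of these markers in the result was not tested. In bulk tissue, fewer cells of a type and less RNA per cell cannot be told apart.

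*Nlrp6*, a sensor of the intestinal epithelium, was among the more abundant members. Its level was 150.6, 338.3, 321.1, 320.7 and 272.6 CPM in DSS-1 to DSS-5 and 428.5, 319.4, 382.3, 191.0 and 232.3 CPM in ceAF-1 to ceAF-5. DSS-1 was the lowest library and ceAF-1 the highest, and the groups overlapped over most of their range. *Nlrp6* had a log2 fold change of 0.15 (SE 0.26, unadjusted edgeR p = 0.587, exact permutation p = 0.659), and without DSS-1 it was −0.01.

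*Aim2*, which binds DNA in the cytosol, was the steadiest member. Its level was 100.4, 107.4, 110.7, 109.6 and 97.8 CPM in DSS-1 to DSS-5 and 127.6, 121.3, 129.0, 130.1 and 114.2 CPM in ceAF-1 to ceAF-5. The lowest ceAF library, at 114.2 CPM, lay above the highest DSS library, at 110.7 CPM, and the coefficient of variation within groups was 5.5% and 5.3%. The mean was 105.2 ± 5.76 CPM in DSS and 124.4 ± 6.65 CPM in ceAF (SD, n = 5 each), a ratio of 1.18.

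The log2 fold change of *Aim2* was 0.24 (SE 0.08), with an unadjusted edgeR p of 0.0110 and an adjusted p of 0.656. The exact permutation p was 0.00794, the smallest that can be reached, for 1 of 10 members so tested. The unadjusted p stayed between 0.00304 and 0.0401 in each of the 19 alternative settings, while the adjusted p was at least 0.255 in all of them. T-cell markers, which included no member, were lower in ceAF in 8 of 8 genes at an unadjusted edgeR p under 0.05. They summed to 109.0, 112.3, 110.4, 119.3 and 41.8 CPM in DSS-1 to DSS-5 and to 39.3, 56.2, 45.8, 25.1 and 33.3 CPM in ceAF-1 to ceAF-5, with *Lck* the most abundant, and their part in the *Aim2* result was not tested. An opposite-strand gene that overlaps *Aim2*, *Cadm3*, held 748 counts over all libraries against 19219 for *Aim2*, and whether the counting used strand is not given in the sources used here.

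*Naip5* encodes a receptor for bacterial flagellin that works with the Nlrc4 protein. Its level was 153.8, 171.3, 186.6, 205.6 and 129.9 CPM in DSS-1 to DSS-5 and 289.8, 144.2, 187.1, 269.4 and 184.0 CPM in ceAF-1 to ceAF-5. ceAF-1 and ceAF-4 lay above every DSS library, the other 3 ceAF libraries within the DSS range. The log2 fold change was 0.34 (SE 0.20), with an unadjusted edgeR p of 0.113 and an exact permutation p of 0.198. With 1 library left out it ran from 0.21 without ceAF-1 to 0.47 without ceAF-2, which was the only such fit that counted it at the unadjusted level of 0.05. With voom it was 0.03.

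The genes nearest to *Naip5* in role were measured beside it. *Naip6*, its close copy and also a flagellin receptor, was at 135.9, 168.6, 205.7, 177.4 and 134.4 CPM in DSS-1 to DSS-5 and at 272.6, 188.6, 220.3, 317.5 and 261.6 CPM in ceAF-1 to ceAF-5. All ceAF libraries but ceAF-2 lay above the highest DSS library. The log2 fold change of *Naip6* was 0.62 (SE 0.16), with an unadjusted edgeR p of 0.00325, an adjusted p of 0.656 and an exact permutation p of 0.0159, and with voom it was 0.37. *Nlrc4*, the partner of the receptors, was at 72.2, 80.7, 77.6, 70.6 and 84.2 CPM in DSS-1 to DSS-5 and at 109.0, 78.6, 89.6, 113.2 and 75.4 CPM in ceAF-1 to ceAF-5. It was highest in ceAF-1 and ceAF-4, as was *Naip6*, and its groups overlapped (log2 fold change 0.27, SE 0.13, unadjusted edgeR p = 0.0560, exact permutation p = 0.0952), though it was counted at the unadjusted level in 4 of the 19 alternative settings. With voom it was 0.17. *Naip1* (0.09, SE 0.14) and *Naip2* (0.10, SE 0.18), receptors for parts of bacterial secretion systems, had log2 fold changes within their error, which with 1 library left out ran from 0.04 to 0.22 and from 0.02 to 0.21.

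The adaptor *Pycard* was level between the groups. It was at 91.9, 118.2, 129.7, 143.1 and 90.9 CPM in DSS-1 to DSS-5 and at 142.5, 102.7, 96.8, 114.5 and 117.9 CPM in ceAF-1 to ceAF-5. Every ceAF library fell between the lowest and the highest DSS library. The means were 114.8 ± 23.1 and 114.9 ± 17.6 CPM (SD, n = 5 each), and the log2 fold change was 0.00 with an SE of 0.15. A short gene on the other strand, Gm45205, overlaps *Pycard* and held 170 counts over all libraries, 0.888% of the 19142 counts of *Pycard*.

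*Casp1* encodes the protease that inflammasomes activate. Its level was 232.9, 276.5, 297.4, 285.4 and 182.5 CPM in DSS-1 to DSS-5 and 372.4, 300.5, 306.6, 268.7 and 210.9 CPM in ceAF-1 to ceAF-5. In ceAF, 3 libraries exceeded the highest DSS library and none fell below the lowest. Its log2 fold change was 0.19 (SE 0.17, unadjusted edgeR p = 0.282, exact permutation p = 0.341). With 1 library left out it ran from 0.09 without ceAF-1 to 0.29 without ceAF-5, and with voom it was 0.08.

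*Casp4*, whose protein binds bacterial lipopolysaccharide directly and also cleaves gasdermin D, lies next to *Casp1* on the same strand of chromosome 9, with 1537 bases between them. Its level was 94.7, 78.2, 72.3, 94.1 and 71.7 CPM in DSS-1 to DSS-5 and 90.7, 101.1, 99.3, 74.7 and 59.8 CPM in ceAF-1 to ceAF-5. ceAF held both the highest library, ceAF-2, and the lowest, ceAF-5. *Casp4* had a log2 fold change of 0.05 (SE 0.16, unadjusted edgeR p = 0.754, exact permutation p = 0.794). In FPKM, which divides the count by exonic length and library total, *Casp1* was 2.91 to 4.87 times *Casp4* within a library.

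Of the executioners, *Gsdmd* varied little between mice. Its level was 299.5, 251.1, 282.7, 283.3 and 303.8 CPM in DSS-1 to DSS-5 and 235.3, 284.3, 279.7, 206.4 and 242.5 CPM in ceAF-1 to ceAF-5. Below the lowest DSS library lay 3 ceAF libraries, ceAF-1, ceAF-4 and ceAF-5, and the other 2 were inside the DSS range. The means were 284.1 ± 20.7 and 249.7 ± 32.5 CPM (SD, n = 5 each), the log2 fold change −0.19 (SE 0.11, unadjusted edgeR p = 0.119) and the exact permutation p 0.0714. Without ceAF-4 the value was −0.12, and with voom it was −0.05.

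*Gsdmc2* and *Gsdmc4* belong to the gasdermin C genes, a group of neighbouring copies known from the gut epithelium of mice. *Gsdmc2* was at 132.6, 222.4, 617.3, 300.5 and 60.6 CPM in DSS-1 to DSS-5 and at 240.2, 223.6, 223.5, 277.5 and 256.0 CPM in ceAF-1 to ceAF-5. All ceAF libraries lay inside the DSS range, and the coefficient of variation was 81.0% in DSS and 9.4% in ceAF. *Gsdmc4* was at 131.1, 254.6, 508.2, 330.0 and 120.6 CPM in DSS-1 to DSS-5 and at 91.9, 309.3, 267.6, 163.0 and 370.0 CPM in ceAF-1 to ceAF-5. Its coefficient of variation was 59.4% in DSS and 46.7% in ceAF. For both genes DSS-3 was the highest library of all, and DSS-1 and DSS-5 were the lowest of their group.

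The gasdermin C genes did not separate the groups. For *Gsdmc2* the log2 fold change was −0.13 (SE 0.47, unadjusted edgeR p = 0.791, exact permutation p = 0.675). For *Gsdmc4* it was −0.16 (SE 0.45, unadjusted edgeR p = 0.725, exact permutation p = 0.818). Without DSS-3 the values were 0.46 and 0.21, and the difference of mean log2 CPM for *Gsdmc2*, which weights each mouse alike, was 0.27. *Gsdmc3*, between them on the chromosome, was at 28.3, 77.4, 137.9, 97.8 and 28.6 CPM in DSS-1 to DSS-5 and at 60.6, 95.7, 58.7, 77.0 and 85.4 CPM in ceAF-1 to ceAF-5, also highest in DSS-3 and lowest in DSS-1 and DSS-5. *Gsdmc*, the first gene of the group, had 8 counts over all 10 libraries and was not tested.

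Within the DSS group *Gsdmc2* and the colon position gene *Hoxb6* stood in nearly the same order, a gene chosen after the values were seen. *Hoxb6* was at 1.27, 25.3, 36.6, 22.4 and 0.96 CPM in DSS-1 to DSS-5 and at 91.0, 0.85, 17.4, 2.98 and 0.88 CPM in ceAF-1 to ceAF-5. In the ceAF group *Hoxb6* covered a wider range while *Gsdmc2* stayed between 223.5 and 277.5 CPM. *Gsdmc4* was lowest in ceAF-1, at 91.9 CPM, where *Hoxb6* was highest. It was highest of the ceAF group in ceAF-5, at 370.0 CPM, where *Hoxb6* was at 0.88 CPM. The place in the colon from which each sample was cut is not given in the sources used here, and its part in these values was not tested.

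**Figure D1:**
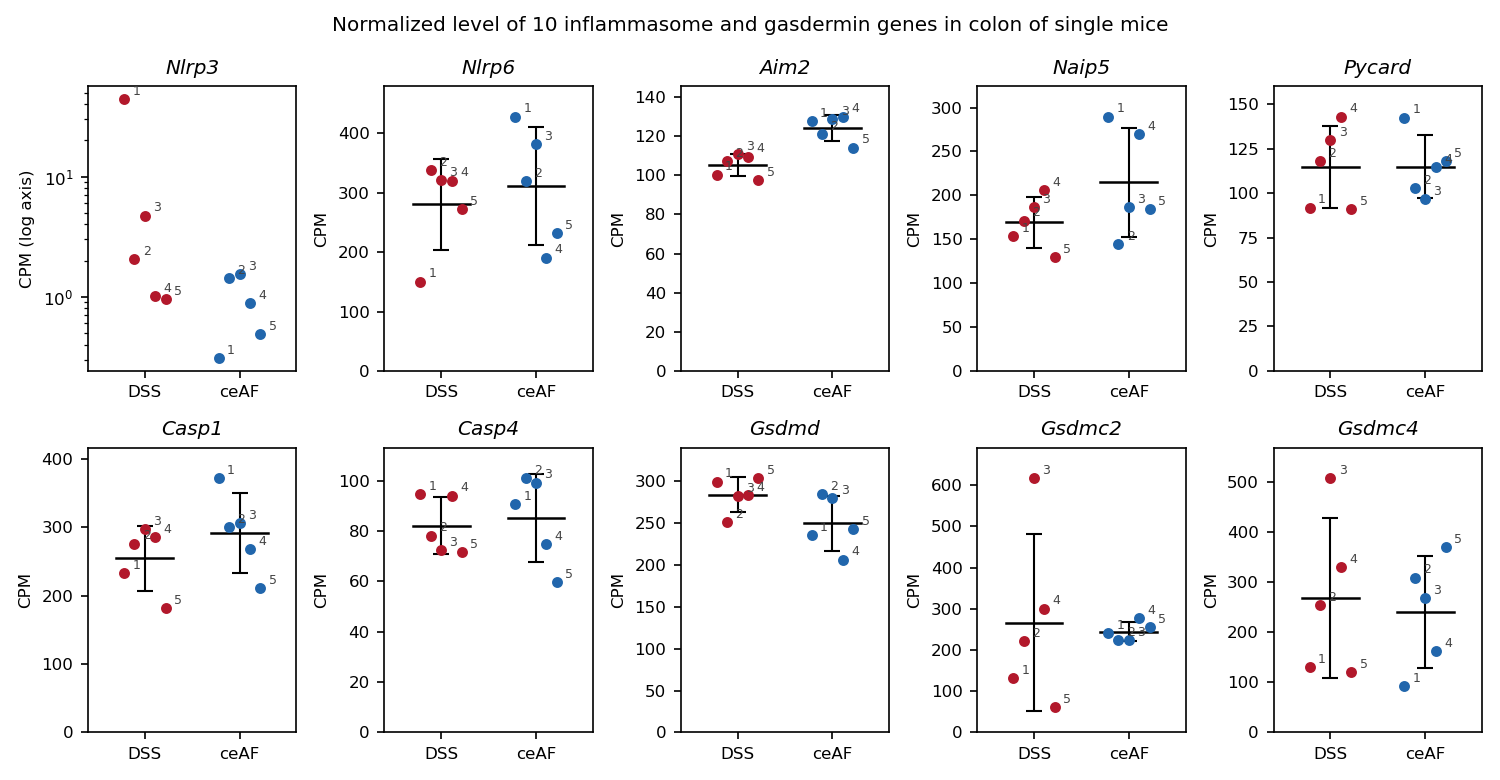
Normalized level (CPM) of each of the 10 genes in single mice, DSS in red and ceAF in blue, numbered by replicate; black lines and bars are the mean and SD of 5 mice, and the Nlrp3 panel has a log axis and no mean. For Aim2 all 5 ceAF mice lie above all 5 DSS mice, for Nlrp3 DSS-1 lies at 44.2 CPM with the others at 4.73 CPM or less, and Gsdmc2 spreads from 60.6 to 617.3 CPM in DSS but only from 223.5 to 277.5 CPM in ceAF.

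Per exonic length, the members covered a wide range of levels. Mean FPKM over the 10 libraries was 122.69 for *Gsdmc4*, 112.19 for *Gsdmd*, 110.41 for *Gsdmc2* and 86.51 for *Casp1*. These 4 were not ordered beyond their spread, since *Gsdmc4* exceeded *Gsdmd* in 6 of 10 libraries, *Gsdmd* exceeded *Gsdmc2* in 5 and *Gsdmc2* exceeded *Casp1* in 6. *Casp1* was above *Nlrp6* (57.52) in all 10 libraries, and *Nlrp6* was above *Naip5* (36.71) in 9 of 10. *Naip5*, *Aim2* (32.72), *Pycard* (30.08) and *Casp4* (22.43) followed, and neighbours in this order changed places in 3 or 4 of the 10 libraries. *Nlrp3*, at a mean of 1.47 FPKM from 0.07 FPKM in ceAF-1 to 11.32 FPKM in DSS-1, lay below *Casp4* in all 10.

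Relations among the members over the 10 libraries were computed as Pearson correlations of log2 CPM, given as a description. Within a library the values of any 2 genes share its tissue makeup and its normalization. Of the 45 pairs of members, 29 had an r above 0, with a median of 0.19, a highest r of 0.70 and a lowest of −0.79. Of the highest, 3 pairs stood at 0.70, *Aim2* with *Naip5*, *Pycard* with *Gsdmc2* and *Pycard* with *Naip5*. Without the 2 libraries farthest from the median of the first gene, DSS-5 and ceAF-4 for *Aim2* and DSS-1 and DSS-5 for *Pycard*, they were 0.46, 0.40 and 0.52. Once each group's mean was removed, 30 pairs were above 0, and *Aim2* with *Casp1* was highest at 0.82.

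The lowest was *Gsdmd* with *Naip5* (r = −0.79, rho = −0.76), which was −0.48 without ceAF-1 and ceAF-4. *Nlrp6* with *Casp1* had r = 0.62 and rho = 0.78, and r = 0.87 without DSS-1 and ceAF-4. *Gsdmc2* with *Gsdmc4* had r = 0.66, and 0.39 without DSS-3 and DSS-5. *Nlrp3* had an r below 0 with 6 other members, *Nlrp6*, *Aim2*, *Pycard*, *Casp1*, *Gsdmc2* and *Naip5*. The value for *Nlrp6* (−0.55) became 0.04 without DSS-1 and DSS-3.

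**Figure D2:**
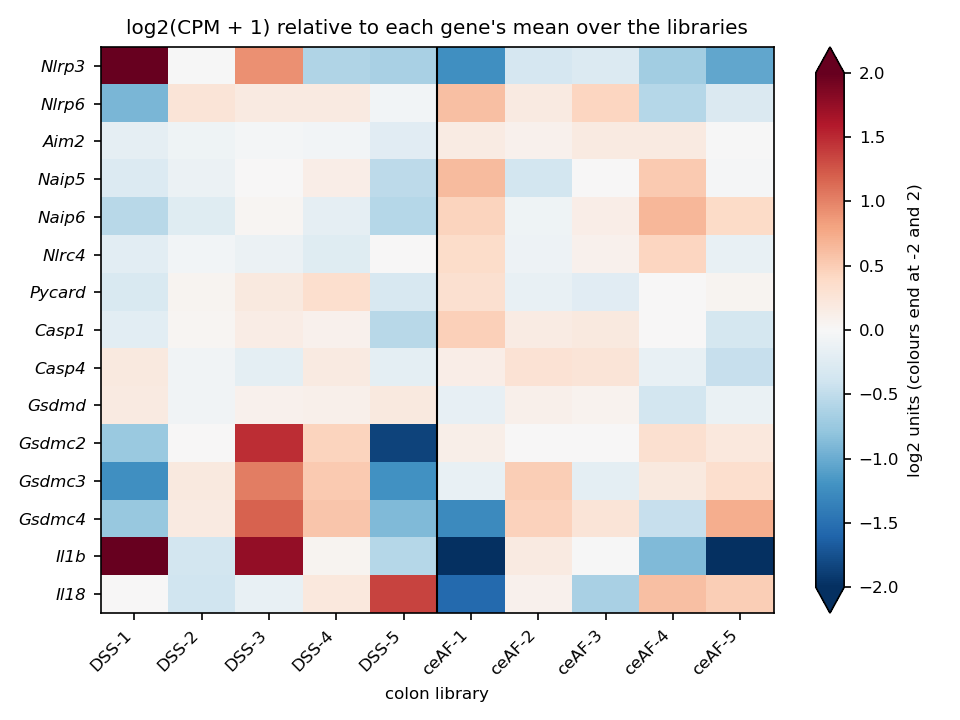
Heat map of log2(CPM + 1) minus the gene's mean over the 10 libraries, one row per gene and one column per colon library, with the black line between DSS and ceAF; red is above and blue below the mean. DSS-1 stands out for Nlrp3 and Il1b, DSS-3 for the gasdermin C genes, and the Naip5, Naip6 and Nlrc4 rows are high in ceAF-1 and ceAF-4.

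For each member, the 3 genes with the highest r were picked from 15221 genes with a mean of at least 1 CPM, so high values are part of the choice. Closest to *Nlrp3* were *Hdc* (r = 0.98), which encodes histidine decarboxylase, *Il1a* (0.97) and *Mcemp1* (0.97). These genes were also highest in DSS-1, outside which *Hdc* was at most at 13.1 CPM and *Mcemp1* at most at 2.57 CPM. Closest to *Nlrp6* were *Ehhadh* (0.96), an enzyme of peroxisomal fatty acid oxidation, *Zadh2* (0.96) and *Uap1* (0.95). *Aim2* was closest to *Fam120b* (0.95), *Zc3h4* (0.91) and *Dop1b* (0.91), and after removal of group means these values were 0.79, 0.66 and 0.86. The CPM of *Fam120b* ran from 45.3 to 50.1 in DSS and from 52.4 to 59.9 in ceAF, again without overlap.

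*Pycard* was closest to *Ppa2* (0.97), *Engase* (0.94) and *Parl* (0.92), of which *Ppa2* and *Parl* encode mitochondrial enzymes. For *Casp1* the closest were *Btnl4* (0.96), *Epha1* (0.96) and *Pon3* (0.95), and for *Casp4* they were *Oas1h* (0.93), *Endod1* (0.93) and *Arpc2* (0.92). *Gsdmd* was closest to *Npc2* (0.93), a lysosomal cholesterol carrier, *Rap1a* (0.91) and *Amdhd2* (0.91). After removal of group means the values of the *Gsdmd* list were 0.90, 0.88 and 0.86.

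For *Gsdmc4* and *Naip5* the closest gene was a neighbour on the chromosome. *Gsdmc4* was closest to *Gsdmcl2* (0.96, with a rho of 1.00), then *Slc16a12* (0.93) and *Ank1* (0.93). *Gsdmcl2* is listed on the opposite strand at 63752556 to 63762361, just before *Gsdmc4*, and its longest GENCODE transcript of 1911 bases shared 0.0% of its stretches of 50 bases with *Gsdmc4* on either strand. *Gsdmc2* was closest to 9130230L23Rik (0.91), *Exosc9* (0.91) and *Mterf2* (0.90), with a rho of 0.67, 0.41 and 0.94. *Naip5* was closest to *Naip3-ps1* (0.96), a pseudogene between *Naip5* and *Naip6*, then 4933407K13Rik (0.95) and *Osbpl10* (0.95). The transcript of *Naip3-ps1* shared 10.2% of its stretches of 50 bases with *Naip5* and 21.2% with *Naip1*, so reads from these stretches have more than 1 possible source.

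*Gsdmc2* and *Gsdmc4* are close copies of each other, and *Naip5* has close copies outside the members, which matters for how reads are assigned. By the deposited positions, whose build is not named, *Gsdmc*, *Gsdmc2*, *Gsdmc3* and *Gsdmc4* lie in a row on the minus strand of chromosome 15 between 63647817 and 63784146, and *Gsdmd* lies apart from them at 75734176 to 75739257. *Naip2*, *Naip5*, *Naip6* and *Naip1* lie in a row on the minus strand of chromosome 13 between 100280571 and 100589377. In GENCODE M21 transcripts, the coding bases of *Gsdmc2* were 97.1% identical to those of *Gsdmc3* and 93.7% identical to those of *Gsdmc4*, and those of *Naip5* and *Naip6* were 97.0% identical. *Casp1* and *Casp4* were 61.1% identical.

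Of all stretches of 50 bases in the transcript, 47.7% of those of *Gsdmc2*, 38.6% of those of *Gsdmc4* and 32.3% of those of *Naip5* also occur in another gene of the same family. For stretches of 100 bases the shares were 24.8%, 19.6% and 10.9%. For *Casp1* and *Casp4* the share was 0.0% at either length. The read length and the way shared reads were counted are not given in the sources used here, so how far shared reads entered the values of *Gsdmc2*, *Gsdmc4* and *Naip5* is not known. The gasdermin C genes were nevertheless not in a fixed proportion, as the FPKM ratio of *Gsdmc2* to *Gsdmc4* ran from 0.45 in DSS-5 to 2.36 in ceAF-1. The ratio of *Naip5* to *Naip6* ran from 0.92 in ceAF-5 to 1.52 in DSS-4.

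**Figure D3:**
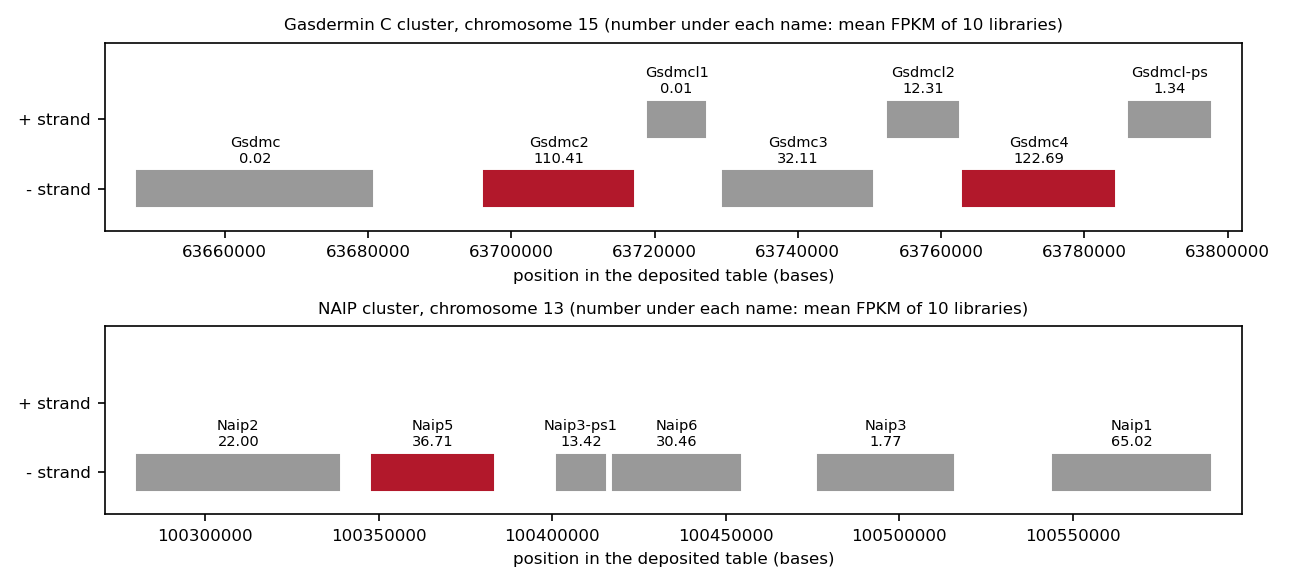
Positions of the gasdermin C cluster on chromosome 15 and of the NAIP cluster on chromosome 13 as deposited, build not named, with members in red and other genes in grey, and the strand on the vertical axis. The number at each name is the mean FPKM over 10 libraries, from 0.01 for Gsdmcl1 to 122.69 for Gsdmc4 in the upper map and from 1.77 for Naip3 to 65.02 for Naip1 in the lower.

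The stretch of 90 bases within 1 coding exon where *Gsdmc2* and *Gsdmc4* differ most shows how reads can still be told apart. It lies in exon 8 of each transcript, at chr15:63826834-63826923 for *Gsdmc2*, chr15:63893781-63893870 for *Gsdmc4* and chr15:63860264-63860353 for *Gsdmc3*, all on the minus strand of GRCm38. Capitals mark the 18 positions at which the 3 sequences are not all the same, and from *Gsdmc2* the sequence of *Gsdmc4* differs at 16 positions and that of *Gsdmc3* at 11.
Gsdmc2: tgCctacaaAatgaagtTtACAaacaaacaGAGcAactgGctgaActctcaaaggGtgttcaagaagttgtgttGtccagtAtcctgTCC
Gsdmc4: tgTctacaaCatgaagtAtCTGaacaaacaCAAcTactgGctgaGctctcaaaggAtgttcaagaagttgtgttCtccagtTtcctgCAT
Gsdmc3: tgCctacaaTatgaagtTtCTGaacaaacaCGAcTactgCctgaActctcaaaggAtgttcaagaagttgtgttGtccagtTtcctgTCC

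Elsewhere the copies are harder to separate, since *Gsdmc2* and *Gsdmc4* share an unbroken identical run of 171 coding bases and *Gsdmc2* and *Gsdmc3* one of 317. The same choice for *Naip5* and *Naip6*, whose longest identical run is 229 coding bases, gave a stretch in the first exon of each transcript, at chr13:100246074-100246163 and chr13:100316426-100316515 on the minus strand of GRCm38. Capitals mark the 11 positions that differ.
Naip5: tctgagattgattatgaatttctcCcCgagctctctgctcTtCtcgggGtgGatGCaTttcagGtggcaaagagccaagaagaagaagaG
Naip6: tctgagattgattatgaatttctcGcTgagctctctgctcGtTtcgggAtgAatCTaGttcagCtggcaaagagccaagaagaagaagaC

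Promoters were searched for 3 short motifs, chosen after the values were seen. RefSeq promoter sequences of GRCm38.p6, from 250 bases before to 50 bases after the start, were matched for 7 of the 10 members as 9 promoters, and not for *Gsdmd*, *Gsdmc2* or *Gsdmc4*. On both strands, TTCNNNGAA was in 8.30% and GAAANNGAA in 8.56% of all 32851 promoters, and no member's promoter held either, which says only that these letters are not in those windows. The kappaB motif was in 4.51% of all promoters and in those of 3 members, *Nlrp3*, *Casp4* and *Naip5*, while the promoters of *Il1a*, *Il1b*, *Il1r2* and *Naip6* did not hold it. Of these 4, that of *Il1r2* held TTCNNNGAA.

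The 30 bases around each kappaB match show that the 3 matches differ in their letters, with the match in capitals. They lie at chr11:59541373-59541402 on the plus strand for *Nlrp3*, chr9:5308746-5308775 on the plus strand for *Casp4* and chr13:100247535-100247564 on the minus strand for *Naip5* in GRCm38.p6, each before the gene's start. A match is a description of the sequence and not a measured site.
Nlrp3: ggcttctgcaGGGAACCCCCgggaattctg
Casp4: atgagttacaGGGGATTTCCccacagcagt
Naip5: ccccagtacaGGGGAACTCCagggacaaga

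Of 59 other pathway genes listed, 52 were tested, and 5 had an unadjusted edgeR p under 0.05, 1 higher and 4 lower in ceAF. Over all genes tested the share at this level was 6.93%. With 1 mouse left out the count ran from 2 (DSS-1 left out) to 9 (DSS-5 left out). In the main fit the 52 genes had a median log2 fold change of −0.05. None passed an adjusted p of 0.05. Among the other sensors 1 of 14 tested genes was counted, *Naip6*, and among the other caspases and executioners none of 8. Among the cytokines and their inhibitors 3 of 7 were counted, all lower, and among 23 activators and regulators 1, *Pstpip1*, was lower.

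Of the 7 cytokine and inhibitor genes, the 3 counted, *Il1b*, *Il1a* and *Il1r2*, were highest in DSS-1, as were *Nlrp3* and the 5 neutrophil markers counted lower, whose part in these results was not tested. *Il1b*, a main product of inflammasome activity, was at 596.6, 13.3, 61.1, 18.1 and 11.4 CPM in DSS-1 to DSS-5 and at 1.68, 20.0, 17.4, 9.01 and 2.53 CPM in ceAF-1 to ceAF-5. DSS-1 was again far above the rest, and without it the other 4 DSS libraries overlapped the ceAF range. *Il1b* had a log2 fold change of −3.79 (SE 1.25, unadjusted edgeR p = 0.0112, exact permutation p = 0.0952), and −1.35 without DSS-1, where it was no longer counted. With all libraries kept, none of these 3 genes was counted with voom and its library weights, a change of method and weights at once. There *Il1b* was −1.29, *Il1a* −0.63 and *Il1r2* −0.70. Nor were they counted with log2(FPKM + 1), at −2.22, −1.12 and −1.27 in the same order. With log2(FPKM + 0.1) *Il1b* was counted, at −2.55, while *Il1a* (−1.53) and *Il1r2* (−1.70) were not. *Il1a* (−3.08, unadjusted edgeR p = 0.0175, exact permutation p = 0.214) was highest in DSS-1 too, at 63.8 CPM, and was −0.80 without it. *Il1r2*, which encodes a decoy receptor (−3.65, unadjusted edgeR p = 0.0162, exact permutation p = 0.230), was at 120.5 CPM in DSS-1 and was −0.65 without it.

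*Il18*, the other cytokine that caspase-1 matures, had another pattern. It was at 74.2, 55.5, 66.0, 85.2 and 189.1 CPM in DSS-1 to DSS-5 and at 24.2, 78.0, 46.4, 112.3 and 103.4 CPM in ceAF-1 to ceAF-5. DSS-5 was the highest library and ceAF-1 the lowest, and the groups overlapped (log2 fold change −0.37, SE 0.43, unadjusted edgeR p = 0.416, exact permutation p = 0.452). When DSS-5 was left out it was 0.07.

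*Pstpip1*, whose protein binds the sensor pyrin, was at 19.3, 9.34, 10.4, 11.8 and 4.62 CPM in DSS-1 to DSS-5 and at 4.43, 5.79, 5.81, 3.22 and 4.29 CPM in ceAF-1 to ceAF-5. All ceAF libraries lay below 4 of the 5 DSS libraries, and DSS-5 lay inside the ceAF range. Its log2 fold change was −1.23 (SE 0.33), with an unadjusted edgeR p of 0.00323 and an exact permutation p of 0.0238, and with log2(FPKM + 1) it was −0.76. The T-cell marker sums were lowest in the same 6 libraries, the 5 of ceAF and DSS-5, and their part in the result was not tested.

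Other executioners did not separate the groups. *Gsdme*, a gasdermin cleaved by caspase-3, had 12.7 to 59.4 CPM in DSS and 17.6 to 63.6 CPM in ceAF (log2 fold change 0.00, SE 0.43). *Ninj1*, which encodes the protein that ruptures the membrane of dying cells, had 11.1 to 19.4 CPM in DSS and 9.19 to 13.2 CPM in ceAF (−0.26, SE 0.18, unadjusted edgeR p = 0.163, exact permutation p = 0.198). Without DSS-1 the value for *Ninj1* was −0.11, and with voom it was −0.10. *Gsdma3* was at 0 counts in all libraries.

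Among the regulators, *Gbp2* and *Zbp1*, chosen after the values were seen, varied widely between mice of the same group. *Gbp2* was at 119.2, 222.7, 292.6, 302.2 and 87.0 CPM in DSS-1 to DSS-5 and at 139.6, 278.0, 299.3, 45.7 and 66.0 CPM in ceAF-1 to ceAF-5. DSS-5, ceAF-4 and ceAF-5 were the 3 lowest libraries. The same 3 were the lowest for *Zbp1*, at 83.2, 81.6 and 63.9 CPM against 215.6 CPM or more elsewhere. DSS-5 and ceAF-5 were also the lowest libraries for *Casp1* (182.5 and 210.9 CPM) and for *Casp4* (71.7 and 59.8 CPM). For *Casp1* ceAF-4 (268.7 CPM) lay above DSS-1 (232.9 CPM), and for *Casp4* ceAF-4 (74.7 CPM) lay above DSS-3 (72.3 CPM).

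The markers of the other cell types gave the frame for these values. At an unadjusted edgeR p under 0.05, 2 of 8 macrophage markers, *Adgre1* and *C1qa*, were lower in ceAF, as was 1 of 7 goblet cell markers, *Tff3*. Of the crypt base and cycling markers 1 of 6 tested, *Axin2*, and of the colon position *Hox* genes 1 of 7 tested, *Hoxd13*, were higher. *Hoxd13* was at 7.25, 121.3, 108.6, 0.00 and 4.95 CPM in ceAF-1 to ceAF-5 and at 1.47 to 10.5 CPM in DSS. Its higher mean came from ceAF-2 and ceAF-3, its exact permutation p was 0.897, and in 6 of the 10 fits with 1 library left out, those without either of them included, it was not counted. With 1 library left out, the macrophage count was 0 in 6 of 10 fits and at most 3, the goblet count 0 in 6 and at most 2, and the crypt count 0 in 7 and at most 3. None of 8 epithelial, 7 surface colonocyte, 6 B-cell, 6 fibroblast and 6 smooth muscle genes was counted. Nor was any of 5 endothelial, 4 tested tuft cell and 5 tested type 2 response genes. Once ceAF-4 was left out, 3 of the 5 endothelial genes, 1 fibroblast gene and 1 type 2 response gene were lower. Without DSS-4 or DSS-5, 1 fibroblast gene was lower, and without ceAF-1, 1 surface colonocyte gene was higher. The 8 epithelial markers summed to 11732.4 ± 1914.7 CPM in DSS and 12511.6 ± 870.6 CPM in ceAF (SD, n = 5 each).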

How the data were processed

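The authors deposited 1 table with, for each gene and mouse, a raw count of reads and an FPKM value, and a check on the file showed that each deposited FPKM is the count divided by exonic length and library total, within 0.005. Poly(A) RNA libraries were sequenced, and the submitters' processing notes name cutadapt 1.9.1 and HISAT2 2.2.1, while the counter, build, strand setting and read length are not given in the sources used here. Gene positions are as deposited, and promoter and transcript sequences are from RefSeq (GRCm38.p6) and GENCODE M21 (GRCm38).

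Counts were filtered with filterByExpr, scaled by TMM and tested with edgeR 4.0.16 in R 4.3.3 (quasi-likelihood, two-sided, Benjamini-Hochberg adjustment over 16545 genes). The script was tested on simulated data. At an adjusted p under 0.05 it recovered 40% of 200 genes changed by a fold of 2, and 82.5% at a fold of 4. Changes of such size can thus be missed. Log2 CPM used a prior count of 1, and permutation tests were exact, two-sided, with all 252 ways to assign 5 of 10 mice. Alternatives were upper quartile scaling, other filters, the replicate block, left-out mice and DESeq2 1.42.0. With limma 3.58.1, voom with sample quality weights and limma-trend on FPKM were also fitted. Throughout, voom stands for the fit with these weights, which changed the method and the weight of each library at once. The DESeq2 fit changed the test and the gene set at once, with 32504 genes against 16545. Within groups the chi-square per gene between 2 libraries was at least 13.2, more than counting alone gives. That libraries came from separate mice rests on the labels.

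The members and gene lists were chosen with earlier results of these data known. Genes named were the members, pathway genes with an unadjusted p under 0.05, 10 pathway genes fixed by name and, for each member, the 3 genes with the highest correlation. Beyond this rule, chosen after values were seen, stand genes overlapping a member, *S100a9*, *Mmp9* and *Gsdma3*. The same holds for the most abundant marker or the markers with an unadjusted p under 0.05 of some lists. The genes *Hoxb6*, *Gbp2*, *Zbp1*, *Mefv*, *Nlrp12*, *Il1rn* and *Nlrc5* were singled out after their values were seen.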

Additional observations from a re-analysis of the deposited data

Results flagged for a closer look

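In groups of 5 mice, a library whose gap to its nearest neighbour took more than 0.71 of the group's range on the log2 scale was looked at again, a rule that chance meets in about 1 of 20 groups. Of 20 groups of member values 1 met it, and of all 48 groups, with sums of marker genes included, 6 did.

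The member was *Nlrp6* in the DSS group, where DSS-1, at 150.6 CPM against 272.6 CPM or more in the other 4, took 0.733 of the range. The macrophage marker sum in DSS-1, 475.4 CPM against at most 194.3 CPM in the other DSS libraries, took 0.848. Of it *Cd14* made 287.8 CPM, against 37.8 to 67.0 CPM in the other DSS libraries. The other macrophage markers were also highest in DSS-1 within the group, *C1qa* at 43.3 CPM against at most 39.5 CPM. The B-cell marker sum in DSS-1, 210.9 CPM against at most 36.9 CPM, took 0.869, and the fibroblast marker sum in DSS-1, 1072.4 CPM against at most 508.6 CPM, took 0.900. The T-cell marker sum in DSS-5, 41.8 CPM against at least 109.0 CPM in the other DSS libraries, took 0.914. The neutrophil marker sum in ceAF-1, 21.5 CPM against at least 136.0 CPM in the other ceAF libraries, took 0.751. *Ly6g* alone made 19.4 CPM of that sum in ceAF-1, and was at 91.8 to 237.0 CPM in the other ceAF libraries. *S100a9* was at 0.31 CPM in ceAF-1 and at 1.98 to 13.4 CPM in the others.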

How the results depend on the processing

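All limits here are those of 5 mice per group, in 19 alternative settings. Of 415 log2 fold changes of 22 named genes, 353 kept their label, 23 were weaker, 5 stronger and 34 reversed. *Aim2*, *Naip6* and *Pstpip1* stayed under the unadjusted level in all settings, but *Naip6* fell to 0.3668 with voom and *Pstpip1* was −0.7579 with log2(FPKM + 1). DESeq2 gave no p for *Nlrp3*, *Il1b* and *Il1r2*, so these have 18 values each. The cause of these changes was not tested.

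The 23 weaker values were lost calls of *Nlrp3* (6), *Il1a* (6), *Il1b* (5) and *Il1r2* (6). All 4 were lost without DSS-1, without DSS-1 and ceAF-1, with voom, with log2(FPKM + 1) and with the block, and all but *Il1b* with log2(FPKM + 0.1). *Nlrp3* was −1.2963 with voom, −0.9032 with log2(FPKM + 1), −1.7167 with log2(FPKM + 0.1) and −1.7281 with the block. The neutrophil count of 5 was 2 with DESeq2, where a gene given no p is not counted, and 0 with voom and the block. The median log2 fold change of that list was −3.94 in the main fit and −3.97 with DESeq2, but −1.08 with voom and −1.77 with the block.

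The 5 stronger values were *Naip5* without ceAF-2 (0.4730) and *Nlrc4* with upper quartile scaling (0.2770), without DSS-5 (0.3231), without ceAF-2 (0.3442) and without ceAF-5 (0.3411). *Naip5* was 0.2133 without ceAF-1, 0.2590 without ceAF-4, 0.1785 without DSS-1 and ceAF-1 and 0.0311 with voom. *Casp1* was 0.0910 without ceAF-1, 0.1102 without DSS-5, 0.2919 without ceAF-5, 0.0581 without DSS-1 and ceAF-1 and 0.0820 with voom. *Nlrc4* was 0.1713 with voom, 0.1862 without DSS-1 and ceAF-1 and 0.2031 without ceAF-4. With 1 mouse left out *Naip1* ran from 0.0389 to 0.2213 and *Naip2* from 0.0166 to 0.2131. *Ninj1* was −0.1062 without DSS-1 and −0.0985 with voom. *Gsdmd* was −0.1158 without ceAF-4 and −0.0485 with voom.

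Genes called went from 0 over 16545 genes to 26 with DESeq2 over 32504 genes, a change of test and gene set at once. With edgeR and no filter on low counts, also over 32504 genes, 0 were called. The count stood at 0 to 3 with 1 mouse left out (0 without DSS-1, 3 without DSS-5). Members counted went from 2 to 1 with DESeq2, where *Nlrp3* had no p, with voom, with both FPKM fits and without DSS-1 and ceAF-1. With 1 mouse left out they went to 1 (without DSS-1) to 3 (without ceAF-2). Over all genes, 1146 of 16545 were at this level in the main fit, and 1568 of 32504 with DESeq2. Of 16545 genes, 2452 were with voom, 1009 with log2(FPKM + 1), 990 with log2(FPKM + 0.1) and 694 with the block. It was 712 of 16713 without DSS-1 and 1186 of 16815 without ceAF-2. Other pathway genes went from 5 to 2 with log2(FPKM + 1), to 3 with log2(FPKM + 0.1), to 3 without DSS-1 and ceAF-1, and to 2 (without DSS-1) to 9 (without DSS-5) with 1 mouse left out.

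*Pycard* turned to −0.0038 with DESeq2, −0.1952 with voom, −0.0127 with log2(FPKM + 1), −0.0128 with log2(FPKM + 0.1) and −0.1577 without DSS-1 and ceAF-1. *Nlrp6* turned to −0.1592 without DSS-1 and ceAF-1. *Gsdmc2* turned to 0.2395 with log2(FPKM + 1) and 0.2466 with log2(FPKM + 0.1). *Gsdmc3* turned to −0.0919 with voom and −0.1094 without DSS-1 and ceAF-1. *Gsdme* turned to −0.0053 with upper quartile scaling, −0.5301 with voom, −0.0160 with log2(FPKM + 1), −0.0050 with log2(FPKM + 0.1) and −0.5026 without DSS-1 and ceAF-1.

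With 1 mouse left out, the lowest and highest log2 fold changes were −0.0070 and 0.2866 for *Nlrp6*, −0.0857 and 0.0936 for *Pycard*, −0.0023 and 0.1545 for *Casp4*, and −0.3706 and 0.4625 for *Gsdmc2*. They were −0.3700 and 0.2135 for *Gsdmc4*, −0.1725 and 0.3906 for *Gsdmc3*, −0.3959 and 0.3639 for *Gsdme*, and −0.5715 and 0.0709 for *Il18*.

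Same-numbered libraries of the 2 groups had an r of −0.249 to 0.286 over genes, 1 of 5 above 0.1, and 1 DSS library was closest to its own number, so the numbers were not read as pairs. With the replicate block 0 genes were called, members counted were 1, other pathway genes 2, and *Gsdmc2* turned to 0.2652.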

Other observations

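Genes outside the members showed the same libraries apart. *Mefv*, which encodes the sensor pyrin, was at 20.5 CPM in DSS-1 and at most 4.67 CPM in the other 9 libraries, with a log2 fold change of −1.26 (SE 0.67, unadjusted edgeR p = 0.0855, exact permutation p = 0.325). *Nlrp12*, too low to be tested, was at 6.03 CPM in DSS-1 and at most 0.26 CPM elsewhere. *Il1rn*, the receptor antagonist, was at 378.0 CPM in DSS-1, between 124.2 and 137.6 CPM in the other DSS libraries, and at 47.0, 137.6, 181.5, 167.8 and 186.4 CPM in ceAF-1 to ceAF-5. These genes were chosen after their values were seen.

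*Nlrc5*, a regulator of MHC class I genes, was at 74.5, 89.1, 92.9, 113.7 and 29.4 CPM in DSS-1 to DSS-5 and at 123.6, 132.1, 195.6, 22.0 and 44.2 CPM in ceAF-1 to ceAF-5. The 3 lowest libraries were ceAF-4, DSS-5 and ceAF-5, the same 3 as for *Gbp2* and *Zbp1*. It too was chosen after its values were seen.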
